A study of Mus musculus with 59 samples.

Results

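Polyamine metabolism was described through 9 genes, found by symbol among the 51456 Ensembl gene identifiers of the deposited table. These were Sat1 and Smox of catabolism, Odc1, Amd1, Srm and Sms of synthesis, and the antizymes Oaz1 and Oaz2 with the antizyme inhibitor Azin1. They were chosen by pathway membership with the drug and genotype comparisons of these libraries already known, and which measured values weighed in that choice is not given in the sources used here. Their tests are therefore descriptions of these libraries, and no count over the 9 genes is evidence of its own. Messenger RNA of prefrontal cortex was sequenced at postnatal day 25 in mice of the C57BL/6J strain, heterozygous for Ank2 (HT, genotype "Heterozygous" in the labels, which give no allele) or wild type (WT). Nursing pups had been exposed from day 3 to day 24 through the milk of the mother, and the doses are not given in the sources used here. The groups were HT fluoxetine (10 libraries), HT lithium (10), HT vehicle (10), WT fluoxetine (9), WT lithium (10) and WT vehicle (10), with 5 females and 5 males in each, except 4 males in WT fluoxetine.

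Polyamines are small positively charged molecules that bind RNA, block the pore of inward rectifier potassium channels and some glutamate receptors, and supply the group that turns eIF5A into its hypusinated form. Ornithine decarboxylase (Odc1) makes putrescine from ornithine, S-adenosylmethionine decarboxylase (Amd1) provides the aminopropyl donor, and spermidine synthase (Srm) and spermine synthase (Sms) add that group stepwise. Sat1 acetylates spermidine and spermine for export or breakdown, and Smox oxidizes spermine back to spermidine. Antizymes bind ornithine decarboxylase and send it to the proteasome, their translation needs a ribosomal frameshift that polyamines promote, and Azin1 is an inactive relative of the decarboxylase that binds antizymes in its place. Much of this control acts on translation and protein stability, which the libraries did not measure.

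Values are estimated gene counts normalized by the authors between libraries, and the log2 changes below are on the log2(value + 1) scale. A gene is said to have risen or fallen where its adjusted p was under 0.05 over all 16919 genes tested (limma, Benjamini-Hochberg). Library sums were 30294665 to 33772261. Ank2, which codes for ankyrin-B, was at 17431 to 22813 in the 30 HT libraries and at 23284 to 35821 in the 29 WT libraries, with no overlap. HT fluoxetine female replicate 2 had a summed level of 8 choroid plexus markers of 80390, against at most 511.2 in any other library, and earlier work on these values had described 3 more libraries as apart from their groups (HT fluoxetine female 4, HT vehicle female 1 and HT vehicle male 2). Results are also given without these 4 where they change. Markers of other brain regions varied as well. The sum of 6 olfactory bulb markers was 184.1 to 9381 over all libraries. Its medians were 993.7, 1727 and 2303 in HT fluoxetine, lithium and vehicle, and 2588, 3414 and 2762 in the same WT groups. The sum of 8 striatum markers was 4279 to 18160, with group medians of 6065 to 6982. The part of regional content in the values of the 9 genes was not tested. In each library the deviation of genes from their mean was also regressed on log2 transcript length. This length slope was -0.00557 to 0.0441 log2 units per doubling of length in HT fluoxetine and 0.0201 to 0.0621 in WT fluoxetine libraries, against -0.0441 to 0.0492 in HT vehicle and -0.0382 to -0.00981 in WT vehicle libraries. The 0.0492 was HT vehicle female replicate 1 alone, and the rest of HT vehicle was at -0.0441 to -0.0112. In HT fluoxetine only male replicate 4 had a negative slope.

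The promoters of 4 genes are shown here, those of the genes whose messages moved in both genotypes or most strongly: Sat1 and Amd1, called with lithium, and the antizymes, called with fluoxetine. They are the 250 bases before the RefSeq start on build GRCm38.p6, read 5′ to 3′ on the strand of the gene, from chrX:155216450-155216699 (minus) for Sat1, chr10:40302189-40302438 (minus) for Amd1, chr10:80826406-80826655 (plus) for Oaz1 and chr9:65676298-65676547 (plus) for Oaz2. Capitals mark TGACG on either strand, the core of the cyclic AMP response element.
Sat1: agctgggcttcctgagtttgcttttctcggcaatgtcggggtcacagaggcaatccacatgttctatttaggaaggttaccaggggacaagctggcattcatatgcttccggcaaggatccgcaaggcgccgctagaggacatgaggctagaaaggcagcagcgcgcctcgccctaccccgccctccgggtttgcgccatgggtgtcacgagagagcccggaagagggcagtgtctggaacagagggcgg
Amd1: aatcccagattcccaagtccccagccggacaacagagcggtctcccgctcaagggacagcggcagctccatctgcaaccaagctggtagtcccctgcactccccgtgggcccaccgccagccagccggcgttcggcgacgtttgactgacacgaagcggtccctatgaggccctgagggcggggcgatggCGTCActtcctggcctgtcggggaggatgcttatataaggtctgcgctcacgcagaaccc
Oaz1: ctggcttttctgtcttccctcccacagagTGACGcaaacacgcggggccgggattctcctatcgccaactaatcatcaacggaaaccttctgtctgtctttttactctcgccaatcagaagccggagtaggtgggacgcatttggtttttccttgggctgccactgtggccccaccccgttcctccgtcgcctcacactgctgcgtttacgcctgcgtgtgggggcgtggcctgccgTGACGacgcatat
Oaz2: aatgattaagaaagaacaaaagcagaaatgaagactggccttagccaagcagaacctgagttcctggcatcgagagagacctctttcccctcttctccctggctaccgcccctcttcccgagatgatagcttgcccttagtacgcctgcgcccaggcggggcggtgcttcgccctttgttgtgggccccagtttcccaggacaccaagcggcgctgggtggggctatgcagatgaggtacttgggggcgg
A set of 6 motifs was searched for on both strands. The full cyclic AMP response element was read as TGACGTCA, and any match to it also counts as one to the core. A site for the transcription factor AP-1 was read as TGANTCA. The E-box, bound by basic helix-loop-helix factors, was read as CACGTG. The TATA box, at which the general transcription machinery assembles in some promoters, was read as TATAAA. The GC box, bound by Sp1 and its relatives, was read as GGGCGG. The core began 60 bases before the start of Amd1 and 221 and 13 bases before that of Oaz1, and 17.8% of 32851 promoters of the same length held it. It was not among the 250 bases of Sat1 or Oaz2. The GC box, held by 32.7% of the promoters, was found in Sat1 (72 and 6 bases before the start), Amd1 (74) and Oaz2 (145, 92 and 6). The full element (1.55% of promoters), the AP-1 site (6.75%), the E-box (6.02%) and the TATA box (12.4%) had no match, as read here, in the 4 windows. Only these exact strings counted, so the tatataag near the end of the Amd1 window was not a match. A match is a run of letters and not a binding site, and its absence says nothing of the factor. RefSeq promoters were found for 7 of the 9 genes, all but Srm and Azin1. Of those not shown, Odc1, which no comparison called, held the core 79 bases before its start and 4 GC boxes. Smox held 6 GC boxes. Sms had 2 promoters, 1 with an E-box (196 bases before the start) and the other with 4 GC boxes.

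Per kilobase of transcript, the antizymes had the highest levels of the 9 genes and Odc1 the lowest. The mean value over 59 libraries was 5192 per kilobase for Oaz1, 3751 for Oaz2, 2803 for Azin1, 1911 for Amd1, 1641 for Sms, 1185 for Sat1, 781 for Smox, 764 for Srm and 652 for Odc1. The lowest and highest library of a gene differed most for Sat1 (919.5 and 1946) and Smox (925.5 and 1789.5).

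**Figure D1:**
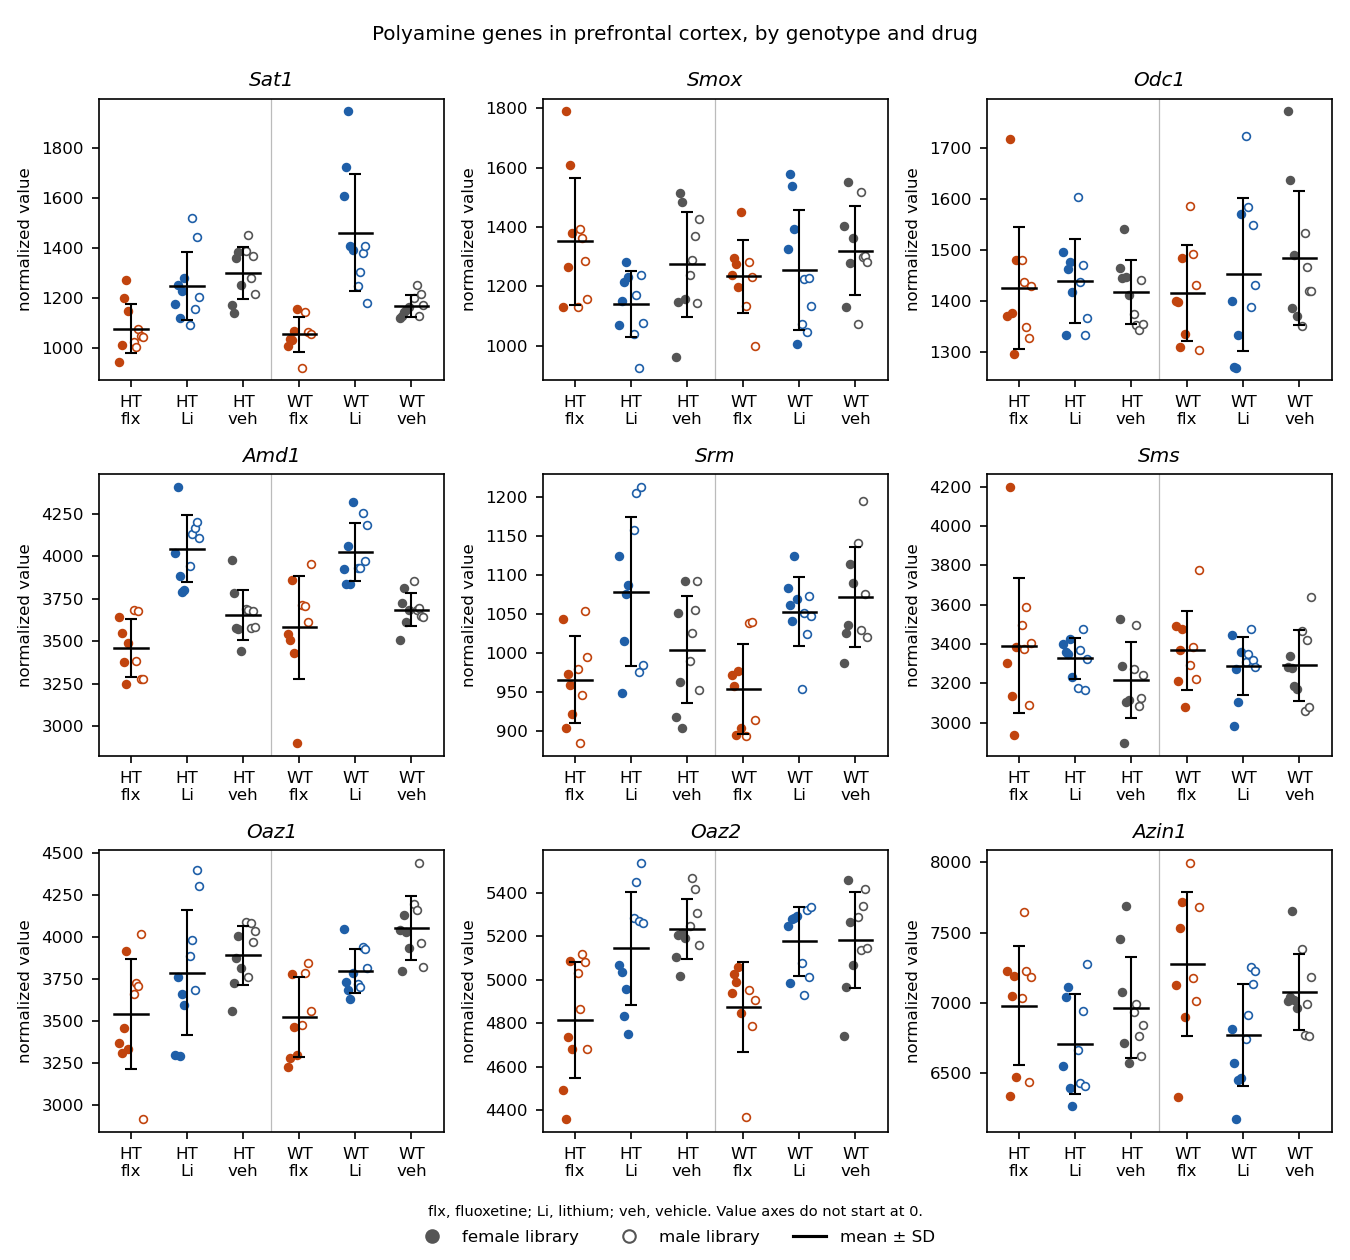
Normalized value (y axis, not starting at 0) of each of the 9 genes in every library, by genotype and drug (x axis). Filled points are females, open points males, and bars the mean ± SD of the group; WT lithium libraries reach 1946 for Sat1, and both lithium groups lie high for Amd1.

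Sat1, the acetyltransferase of polyamine breakdown, had the widest drug differences of the 9 genes. Its value (lowest, median, highest) was 943.6, 1045 and 1272 in HT fluoxetine, 1088, 1215 and 1517 in HT lithium, 1137, 1319 and 1450.5 in HT vehicle, 919.5, 1053 and 1155 in WT fluoxetine, 1179, 1399 and 1946 in WT lithium, and 1117, 1155 and 1252 in WT vehicle libraries. By mean, WT lithium was highest (1459 ± 234, SD, n = 10), followed by HT vehicle (1300 ± 105), HT lithium (1246 ± 138), WT vehicle (1165 ± 43.8), HT fluoxetine (1076 ± 99.6) and WT fluoxetine (1052 ± 70.4, n = 9). The ranges of each pair of neighbours in this order overlapped. In bulk tissue, fewer cells of a type and less RNA per cell cannot be told apart, for Sat1 or any gene below.

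With lithium, Sat1 rose in WT libraries and was not called in HT libraries. In WT lithium females it was at 1608, 1724, 1946, 1407 and 1390.6, and in WT lithium males at 1246, 1303, 1380, 1408 and 1179. WT vehicle females were at 1117, 1126, 1141, 1149 and 1160.4, and WT vehicle males at 1197, 1252, 1126, 1215 and 1169. All 5 WT lithium females were above every WT vehicle library, whereas 2 of the 5 WT lithium males lay within the vehicle range. Over both sexes the log2 change was 0.31 (SE 0.06, 95% interval 0.20 to 0.42, adjusted p = 0.0006), a 1.24-fold level. It was 0.49 in females (SE 0.08, adjusted p = 0.00049) and 0.13 in males (SE 0.08, adjusted p = 0.56), and the difference between the sexes was 0.37 (SE 0.11, adjusted p = 0.28).

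In HT libraries the corresponding log2 change of Sat1 with lithium was -0.06 (SE 0.06, 95% interval -0.17 to 0.05, adjusted p = 0.54). HT lithium libraries overlapped HT vehicle libraries over most of their range, and male replicates 2 and 4, at 1517 and 1445, were the highest of the HT lithium group. The lithium effect in HT minus that in WT was -0.37 (SE 0.08, 95% interval -0.53 to -0.22). This difference had the smallest p of all genes tested (1.4e-05) and an adjusted p of 0.23, so it was not called. Without HT lithium male replicate 2 the adjusted p was 0.033, without HT vehicle female replicate 1 it was 0.036, without the 4 libraries set apart it was 0.030, and it ranged up to 0.59 when other single libraries were left out. Set against WT lithium directly, HT lithium libraries were lower by a log2 change of -0.22 (SE 0.06, adjusted p = 0.046). That call was near the threshold, and neither the alternative fits nor the leaving out of libraries were run for it. Sat1 was the 1 gene of the 9 that fell in this comparison, in which 0.55% of all genes tested were called (0.319% lower and 0.231% higher). The vehicle groups enter the difference as well: the log2 change of HT vehicle against WT vehicle was 0.15 (SE 0.06, unadjusted p = 0.007, adjusted p = 1), and 6 of 10 HT vehicle libraries were above every WT vehicle library.

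With fluoxetine, Sat1 fell in HT libraries. All 10 HT fluoxetine libraries were below the HT vehicle median, and 7 were below every HT vehicle library. This was a log2 change of -0.27 (SE 0.06, 95% interval -0.38 to -0.16, adjusted p = 0.00039), a 0.827-fold level, and -0.21 (adjusted p = 0.012) once trends with transcript length and GC content were removed. By sex it was -0.18 in HT females (adjusted p = 0.13) and -0.36 in HT males (adjusted p = 0.0027), with a difference of 0.18 (SE 0.11, adjusted p = 0.67). In WT libraries the log2 change was -0.15 (SE 0.06, 95% interval -0.26 to -0.04, adjusted p = 0.064), and 7 of 9 WT fluoxetine libraries were below every WT vehicle library. The WT call depended on the fit: the adjusted p was 0.016 when the WT fluoxetine and vehicle groups were fitted alone, 0.047 without WT fluoxetine female replicate 5 and 0.039 without WT fluoxetine male replicate 2. Sat1 was also called in WT when the replicate number was added to the fit, as given in the closing section. The fluoxetine effect in HT minus that in WT was -0.12 (SE 0.08, 95% interval -0.28 to 0.04, adjusted p = 0.75).

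**Figure D2:**
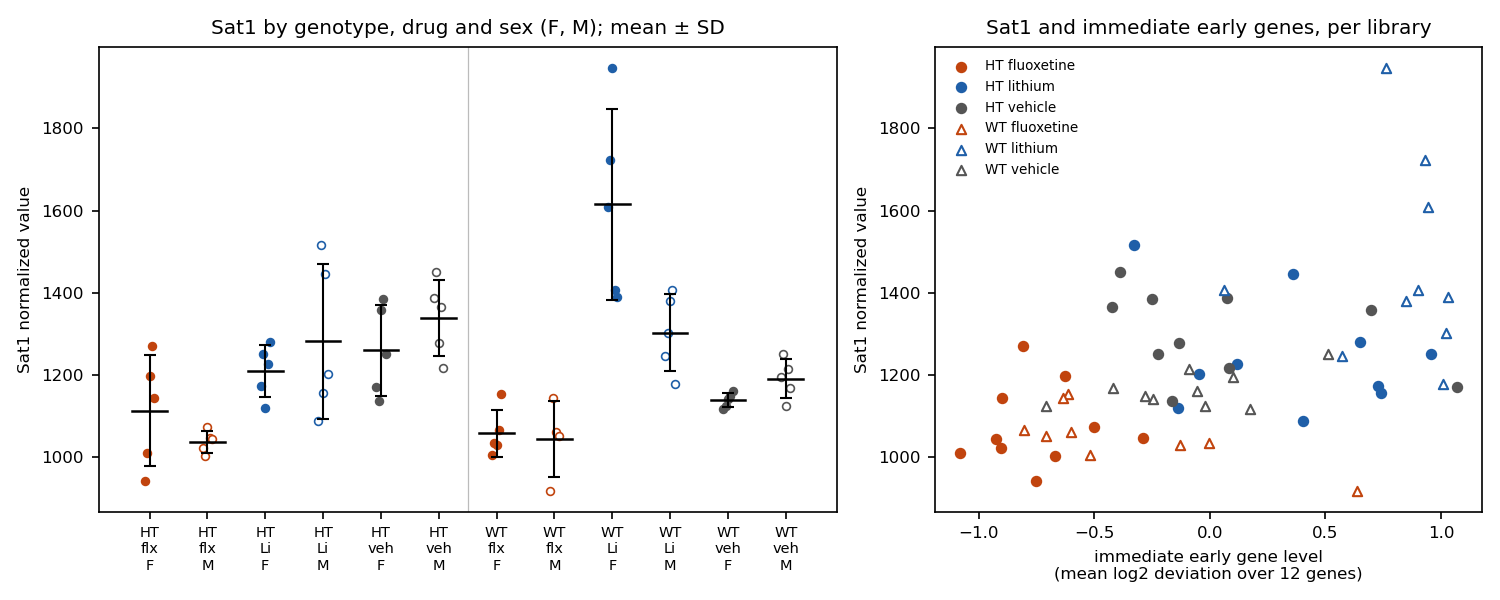
Left, Sat1 normalized value in each library by genotype, drug and sex, with mean ± SD. Right, Sat1 value against the immediate early gene level of the library (mean log2 deviation over 12 genes), with HT as filled circles and WT as open triangles; WT lithium females reach the highest Sat1 values, and HT fluoxetine libraries lie at the low end of both axes.

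Immediate early genes, transcription factors and other genes that neurons induce within minutes of activity, are given here beside Sat1. In WT lithium 11 of 12 rose, where 1.33% of all genes tested rose, and the summed level of the list was 15910 to 30300 (median 27900), against 8954 to 20240 (median 14340) in WT vehicle libraries. In HT fluoxetine 11 of 12 fell, where 7.38% of all genes tested fell, and the sum was 7486 to 11990 (median 9154), against 11110 to 32700 (median 12880) in HT vehicle libraries. In HT lithium, where Sat1 was not called, none of the 12 was called, against 5.01% of all genes tested. The median of the sum there was above that of HT vehicle libraries at 20880 (12790 to 31470). In WT fluoxetine none of the 12 was called either, against 14.8% of all genes tested, with a sum of 8601 to 22220 (median 10440). Single libraries stood high in these groups. The early gene level was 1.07 and 0.699 in HT vehicle female replicates 1 and 3, against -0.425 to 0.081 in the rest of HT vehicle. It was 0.638 in WT fluoxetine male replicate 1, against -0.806 to -0.00431 in the rest of WT fluoxetine. Early gene calls were not counted with these libraries left out. Within groups, Sat1 and the immediate early gene level had a Pearson r of -0.13 and a Spearman rho of -0.08 over 59 libraries (permutation p = 0.41 and 0.61, adjusted over 18 relations 0.52 and 0.74, r = -0.07 without the 2 outermost libraries). Glucocorticoid-induced genes rose in HT fluoxetine for 6 of 11 list members (sum 13990 to 24730, against 13830 to 16770 in HT vehicle libraries), and 4 of 5 blood cell genes fell (sum 4215 to 9942, against 8105 to 14630). Of all genes tested, 6.63% rose and 7.38% fell there. None of the genes in these 3 lists was at 0 throughout. The part of any of them in the Sat1 values was not tested.

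Smox, the spermine oxidase, was not called with either drug against vehicle. Its median was 1324 in HT fluoxetine, 1160 in HT lithium, 1264 in HT vehicle, 1237 in WT fluoxetine, 1225 in WT lithium and 1301 in WT vehicle libraries, and all groups overlapped. The widest log2 change against vehicle was -0.15 with lithium in HT libraries (SE 0.08, 95% interval -0.31 to 0.004, adjusted p = 0.26). Between the drugs it was higher in HT fluoxetine, at 1131 to 1789.5, than in HT lithium libraries, at 925.5 to 1282, by a log2 change of 0.24 (SE 0.08, adjusted p = 0.036). That comparison was not refitted under the alternatives.

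Odc1, whose product makes putrescine, had group medians of 1400 to 1450. Its lowest, median and highest values were 1295, 1403 and 1716 in HT fluoxetine, 1332, 1450 and 1604 in HT lithium, 1342, 1426 and 1541 in HT vehicle, 1303, 1400 and 1586 in WT fluoxetine, 1269, 1416 and 1723 in WT lithium, and 1351, 1443 and 1771 in WT vehicle libraries. Every pair of groups overlapped, and no comparison called it. The log2 change with fluoxetine was 0.01 in HT (SE 0.05, 95% interval -0.09 to 0.10) and -0.06 in WT libraries (SE 0.05, 95% interval -0.16 to 0.03). With lithium it was 0.02 in HT (SE 0.05, 95% interval -0.07 to 0.11) and -0.03 in WT libraries (SE 0.05, 95% interval -0.13 to 0.06). All 4 intervals lie below the 0.31 of Sat1 with lithium in WT libraries and above its negative.

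Amd1, the S-adenosylmethionine decarboxylase, rose with lithium in both genotypes. HT lithium libraries were at 3792, 4062 and 4405 (lowest, median, highest), against 3444, 3631 and 3979 in HT vehicle libraries. WT lithium libraries were at 3834, 3952 and 4315, against 3506, 3682 and 3852 in WT vehicle libraries. All 20 lithium libraries were above the vehicle median of their genotype, and 6 of 10 HT and 8 of 10 WT lithium libraries were above every vehicle library of their genotype. The log2 change was 0.14 in HT (SE 0.03, 95% interval 0.08 to 0.21, adjusted p = 0.0084) and 0.13 in WT libraries (SE 0.03, 95% interval 0.06 to 0.19, adjusted p = 0.033). The 2 effects differed by 0.02 (SE 0.05, 95% interval -0.08 to 0.12, adjusted p = 0.96). The WT call was near the threshold and was lost without any 1 of 9 of the 20 libraries compared (highest adjusted p = 0.069) and with no filter on low values (0.065). The near-identical gene Amd2 had a mean value of 17.3, and adding it left the log2 change at 0.14 in HT and 0.13 in WT libraries.

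With fluoxetine Amd1 was not called. Its log2 change was -0.08 in HT (SE 0.03, adjusted p = 0.11) and -0.04 in WT libraries (SE 0.03, adjusted p = 0.52). Between the drugs, the 10 HT fluoxetine libraries, at 3251 to 3685, were all below the 10 HT lithium libraries, at 3792 or more (log2 change -0.22, SE 0.03, adjusted p = 7.1e-06). In WT the ranges overlapped, and the log2 change of fluoxetine against lithium was -0.17 (SE 0.03, adjusted p = 0.00036).

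Srm, the spermidine synthase, fell with fluoxetine in WT libraries. WT fluoxetine libraries were at 893.3, 957.8 and 1040 (lowest, median, highest), against 987.4, 1056 and 1195 in WT vehicle libraries. All 9 were below the vehicle median, and 7 were below every vehicle library. For WT the log2 change was -0.16 (SE 0.04, adjusted p = 0.0066), and -0.10 (adjusted p = 0.074) with length and GC trends removed. HT fluoxetine libraries were at 884.1, 966.1 and 1054, against 903.7, 1008 and 1093 in HT vehicle libraries (log2 change -0.06, SE 0.04, adjusted p = 0.42). With lithium Srm was not called in HT (0.10, SE 0.04, adjusted p = 0.16) or WT libraries (-0.02, SE 0.04, adjusted p = 0.87).

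Sms, the spermine synthase, was not called in any comparison. Its median was 3378 in HT fluoxetine, 3353 in HT lithium, 3185 in HT vehicle, 3371 in WT fluoxetine, 3311 in WT lithium and 3280 in WT vehicle libraries. All log2 changes against vehicle were between -0.0006 and 0.07, with SE of 0.04.

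**Figure D3:**
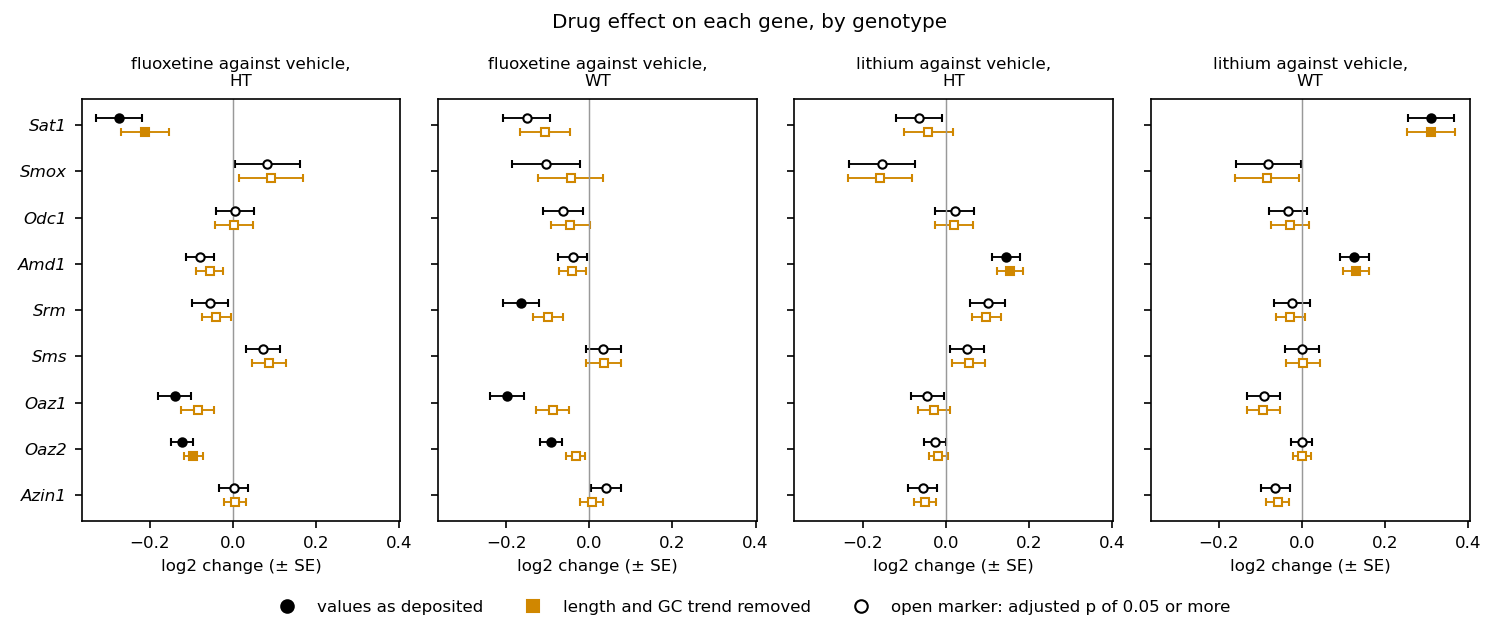
Log2 change (x axis, ± SE) of each of the 9 genes with fluoxetine or lithium in HT and WT libraries. Circles are values as deposited and squares values with length and GC trends removed, filled where the adjusted p was under 0.05; Sat1 with lithium in WT (0.31) is the largest change, and the WT fluoxetine circles of Srm, Oaz1 and Oaz2 are filled while their squares are open.

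Oaz1, the antizyme with the higher level per kilobase, fell with fluoxetine in both genotypes. HT fluoxetine libraries were at 2916, 3560 and 4016 (lowest, median, highest), against 3557, 3924 and 4087 in HT vehicle libraries. WT fluoxetine libraries were at 3226, 3479 and 3845, against 3799, 4037 and 4439 in WT vehicle libraries. Of the WT fluoxetine libraries, 8 of 9 were below every WT vehicle library, and of the HT fluoxetine libraries 5 of 10 were below every HT vehicle library. The log2 change was -0.14 in HT (SE 0.04, 95% interval -0.22 to -0.06, adjusted p = 0.012) and -0.20 in WT libraries (SE 0.04, 95% interval -0.28 to -0.11, adjusted p = 0.0005). With length and GC trends removed it was -0.08 in HT (adjusted p = 0.15) and -0.09 in WT libraries (adjusted p = 0.17), and when the 2 HT groups were fitted alone the adjusted p was 0.068. With lithium the log2 change was -0.04 in HT (adjusted p = 0.56) and -0.09 in WT libraries (adjusted p = 0.27).

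The value of Oaz1 is uncertain, since 95.3% of the 31-base words of a processed pseudogene, Oaz1-ps, also occur in its transcripts, and reads may be divided between them. Oaz1-ps had a mean value of 1187. It was at 903.8 to 1202 in HT fluoxetine, 810.8 to 1439.8 in HT lithium, 1117 to 1649 in HT vehicle, 864.1 to 1133 in WT fluoxetine, 1111 to 1354 in WT lithium and 1225 to 1700 in WT vehicle libraries. None of the 9 WT fluoxetine libraries overlapped the WT vehicle libraries. It fell with fluoxetine by a log2 change of -0.35 in HT (SE 0.06, adjusted p = 5e-05) and -0.47 in WT libraries (SE 0.06, adjusted p = 3e-07), and with lithium by -0.31 in HT libraries (SE 0.06, adjusted p = 0.0016). The sum of both was 4089 to 5218 in HT fluoxetine, 4210 to 5714 in HT lithium, 4674 to 5620 in HT vehicle, 4091 to 4833 in WT fluoxetine, 4922 to 5256 in WT lithium and 5046 to 5718 in WT vehicle libraries. For the sum, the log2 change with fluoxetine was -0.19 in HT (SE 0.03, adjusted p = 3.7e-05) and -0.26 in WT libraries (SE 0.03, adjusted p = 1.7e-07), and with lithium -0.11 in HT (SE 0.03, adjusted p = 0.042) and -0.10 in WT libraries (SE 0.03, adjusted p = 0.11). The sum was tried after these values were seen.

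Oaz2, the broadly expressed relative of Oaz1, fell with fluoxetine in both genotypes by a smaller step. HT fluoxetine libraries were at 4359, 4803 and 5119 (lowest, median, highest), against 5016, 5209 and 5468 in HT vehicle libraries. WT fluoxetine libraries were at 4368, 4940 and 5058, against 4740, 5207 and 5459 in WT vehicle libraries. All 19 fluoxetine libraries were below the vehicle median of their genotype. The log2 change was -0.12 in HT (SE 0.03, 95% interval -0.17 to -0.07, adjusted p = 0.00062) and -0.09 in WT libraries (SE 0.03, 95% interval -0.14 to -0.04, adjusted p = 0.011). With length and GC trends removed it was -0.10 in HT (adjusted p = 0.0032) and -0.03 in WT libraries (adjusted p = 0.44). The WT call was also lost without WT fluoxetine male replicate 1 (adjusted p = 0.051) and with the 2 WT groups fitted alone (0.060). With lithium the log2 change was -0.03 in HT (adjusted p = 0.61) and -0.001 in WT libraries (adjusted p = 0.99).

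Transcripts of 7 of the 9 genes are shorter than the median of all genes tested (2191 bases): 726 bases for Oaz1, 1029 for Sat1, 1338 for Srm, 1352.5 for Oaz2, 1617 for Smox, 1960 for Amd1 and 2019 for Sms. Odc1 (2208) and Azin1 (2482) are longer. Within groups, the length slope of a library and the value of a gene had a Pearson r of -0.45 for Oaz2, -0.45 for Srm, -0.36 for Oaz1 and 0.42 for Azin1 over 59 libraries. The permutation p, adjusted over 18 relations, was 0.0032, 0.022, 0.043 and 0.031. Spearman rho was -0.50, -0.45, -0.33 and 0.46 (adjusted permutation p = 0.0036, 0.011, 0.096 and 0.0081), and r without the 2 outermost libraries was -0.46, -0.41, -0.32 and 0.38. The sign did not follow length in all: r was 0.25 for Amd1 and 0.28 for Sms (rho 0.20 and 0.22, adjusted permutation p = 0.22 for each r and 0.39 for each rho, r = 0.16 and 0.22 without the 2). For Sat1, r was -0.32 and rho -0.28 (adjusted permutation p = 0.079 and 0.21, r = -0.26 without the 2). The length slope was high in the fluoxetine groups and also in HT lithium females (0.00576 to 0.0461, against -0.0258 to 0.0492 in HT vehicle females). Without replicate 1, HT vehicle females were at -0.0258 to -0.0135. WT lithium libraries were at -0.03 to -0.00521. Its part in the fluoxetine values was not tested beyond the removal of the trend.

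**Figure D4:**
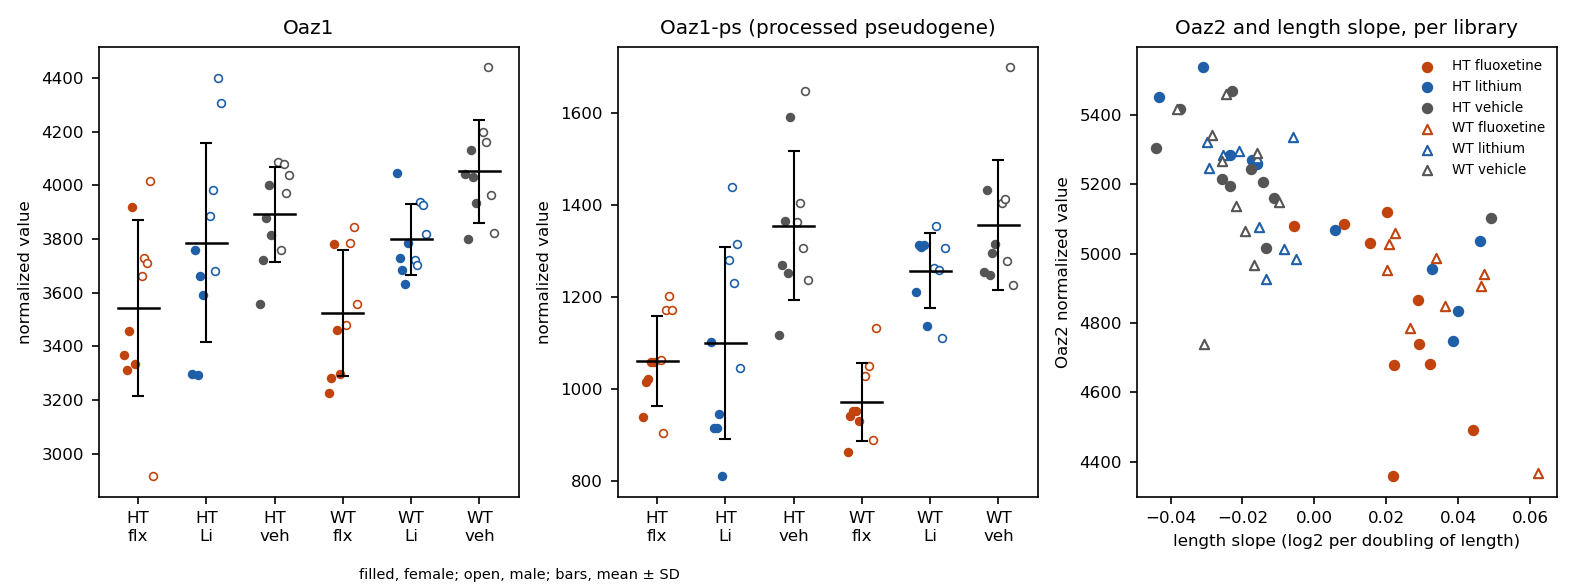
Left and middle, normalized values of Oaz1 and of its processed pseudogene Oaz1-ps in every library by genotype and drug (females filled, males open, bars mean ± SD). Right, Oaz2 value against the length slope of the library (HT filled circles, WT open triangles); the lowest Oaz2 values, down to 4359, are in fluoxetine libraries with a positive slope.

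Azin1, the antizyme inhibitor, was not called with either drug against vehicle. Its median was 7113 in HT fluoxetine, 6604 in HT lithium, 6888 in HT vehicle, 7173 in WT fluoxetine, 6776 in WT lithium and 7015 in WT vehicle libraries. The log2 change with fluoxetine was 0.002 in HT and 0.04 in WT libraries, and with lithium -0.05 in HT and -0.06 in WT libraries, with SE of 0.03 to 0.04. Between the drugs it was higher in WT fluoxetine, at 6326 to 7995, than in WT lithium libraries, at 6171 to 7251, by a log2 change of 0.11 (SE 0.04, adjusted p = 0.029). That comparison was not refitted under the alternatives. An antisense gene, Gm49077, overlaps Azin1 on the other strand with a mean value of 10.1.

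Counted together, 3 of the 9 genes fell with fluoxetine in HT libraries (Sat1, Oaz1 and Oaz2), where 14% of all genes tested were called (7.38% lower and 6.63% higher). In WT libraries 3 fell (Srm, Oaz1 and Oaz2), where 14.8% of all genes tested were called (7.78% lower and 7% higher). With lithium, 1 of 9 rose in HT libraries (Amd1), where 5.01% of all genes tested were called (2.75% higher and 2.26% lower), and 2 of 9 rose in WT libraries (Sat1 and Amd1), where 2.22% were (1.33% higher and 0.892% lower). The HT lithium share is 847 genes, a count of 356 to 1597 with single libraries left out (highest without HT vehicle female replicate 1, lowest without HT vehicle female replicate 4) and of 1958 without the 4 libraries apart, with Amd1 the 1 member called with any single library left out. The WT lithium share is 376 genes, a count of 214 (without WT lithium male replicate 4) to 435 with single libraries left out. The median log2 change of the 9 genes was -0.06 with fluoxetine in HT and -0.09 in WT libraries, and -0.03 with lithium in HT and -0.02 in WT libraries, and that of all genes was within 0.005 of 0. Within a genotype both drugs were compared with the same vehicle libraries. Set against each other, 5 of 9 genes were called in HT (Sat1, Amd1, Srm and Oaz2 lower with fluoxetine, Smox higher), where 13.1% of all genes tested were called (6.88% lower and 6.18% higher), and 5 of 9 in WT libraries (Sat1, Amd1, Srm and Oaz2 lower, Azin1 higher), where 21.3% were (11.2% lower and 10.1% higher). Since the 9 genes were listed with such results known, nothing is read from these shares.

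Between the genotypes, Sat1 was called in lithium, near the threshold and in a comparison not refitted, as given above, and no member in vehicle or fluoxetine. In vehicle libraries limma called 0 of 9 between HT and WT, 2 had an unadjusted p under 0.05 (Sat1, above, and Srm, log2 change -0.09, SE 0.04), and 0.00591% of all genes tested were called. The remaining 7 had log2 changes of -0.06 to 0.01. In fluoxetine 0 of 9 were called between HT and WT (0 at an unadjusted p under 0.05; 0.0118% of all genes called). The difference of the fluoxetine effects between the genotypes was called for 0 of 9 (0 at an unadjusted p under 0.05) and that of the lithium effects for 0 of 9 (2 at an unadjusted p under 0.05, Sat1 and Srm), where 0% of all genes tested were called in either.

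Oaz1 was the gene of the 9 that differed between the sexes. Female libraries were at 3226, 3704 and 4131 (lowest, median, highest), against 2916, 3886 and 4439 in male libraries, and the log2 change averaged over the 6 genotype and drug groups was -0.08 (SE 0.02, adjusted p = 0.048), where 2.1% of all genes tested were called (1.3% lower and 0.798% higher in females). That share is 355 genes, a count of 199 without WT fluoxetine male replicate 4 and 1011 without WT fluoxetine male replicate 1. The mean of females was below that of males in each of the 6 groups. The call was lost without any 1 of 41 of the 59 libraries, with rescaled libraries (adjusted p = 0.054) and with length and GC trends removed (0.072), while the sum with Oaz1-ps kept it (-0.10, adjusted p = 0.003). Sat1 and Sms lie on the X chromosome, and their log2 changes of females against males were 0.03 (SE 0.03, adjusted p = 0.63) and -0.02 (SE 0.02, adjusted p = 0.64).

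Across libraries, the genes nearest to Sat1 among 13932 with a mean of at least 50 were Mknk2, a kinase of the translation factor eIF4E (Pearson r = 0.78), Ftl1, the ferritin light chain (0.76), Atp6v0b, a subunit of the vacuolar proton pump (0.75), Pex5, the peroxisomal import receptor (0.75), and Stk19 (0.74). Nearest to Odc1 were Itm2b (0.73), Akain1 (0.73), Zswim5 (0.69), Aph1b, a subunit of gamma-secretase (0.68), and Ap1s2, a clathrin adaptor subunit (0.68). These are correlations over 59 libraries, group differences included. For the Odc1 neighbours, Spearman rho was lower, at 0.53, 0.59, 0.61, 0.58 and 0.56 in that order, and without the 2 outermost libraries r was 0.62, 0.66, 0.64, 0.63 and 0.58, which changes their order. For the Sat1 neighbours rho was 0.73, 0.77, 0.76, 0.73 and 0.72, and r without those 2 was 0.73, 0.74, 0.76, 0.71 and 0.72. Among the 9 genes, with group means removed, r was highest for Amd1 with Sms (0.50), Sat1 with Smox (0.45) and Oaz1 with Oaz2 (0.44), and lowest for Odc1 with Oaz2 (-0.52) and Smox with Amd1 (-0.42). The libraries share these values' normalization and their length slopes.

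The wider pathway was read from 6 lists. Of the other synthesis, catabolism and antizyme genes, 4 of 7 passed the filter on low values (Sat2, Paox, Azin2 and Amd2) and none was called in any of the 4 drug comparisons. In HT and WT libraries, 14% and 14.8% of all genes tested were called with fluoxetine, and 5.01% and 2.22% with lithium. The hypusination list held both eIF5A genes and the enzymes Dhps and Dohh, all 4 tested, and Eif5a2, one of the eIF5A genes, rose with lithium in HT libraries, at 1564 to 1910 against 1370 to 1786 in HT vehicle libraries (log2 change 0.18, SE 0.05, adjusted p = 0.034). In that comparison 2.75% of all genes tested rose. Of 13 transport genes tested, 2 rose with fluoxetine in HT libraries, Slc3a2, the heavy chain of amino acid transporters (0.10, SE 0.03), and Gpc1, the proteoglycan glypican (0.15, SE 0.05), where 6.63% of all genes tested rose, and none was called in the other 3 comparisons. Nothing particular to transport genes is read from that count.

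Of 7 genes of arginine and ornithine supply tested, Oat, the ornithine aminotransferase, fell with fluoxetine in both genotypes. It was at 2021, 2058 and 2162 (lowest, median, highest) in HT fluoxetine, against 2081, 2226 and 2367 in HT vehicle libraries, and at 1927, 2096 and 2185 in WT fluoxetine, against 2188, 2247 and 2343 in WT vehicle libraries. All 9 WT fluoxetine libraries were thus below every WT vehicle library. Its log2 change was -0.11 in HT (SE 0.02, adjusted p = 0.00085) and -0.12 in WT libraries (SE 0.02, adjusted p = 0.00015). Aldh18a1, which makes the precursor of proline and ornithine from glutamate, fell in HT fluoxetine libraries (-0.19, SE 0.06, adjusted p = 0.014). Of all genes tested, 7.38% fell with fluoxetine in HT and 7.78% in WT libraries.

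Of 12 genes of the methionine cycle and salvage tested, Ahcyl1, an S-adenosylhomocysteine hydrolase-like protein, rose with fluoxetine in HT (0.10, SE 0.02) and WT libraries (0.06, SE 0.02), Ahcyl2 rose in HT libraries (0.24, SE 0.07), and Mat2a, which makes S-adenosylmethionine, fell in WT libraries (-0.12, SE 0.04). A second gene of that list that fell there, Apip (-0.19, SE 0.07), is named after its value was seen. The list labelled polyamine-gated channels had 13 genes tested, of inward rectifier channels, glutamate receptors and an auxiliary subunit (Cacng2). Block by polyamines was not established for each. Of these, the NMDA receptor subunits Grin2a (0.30, SE 0.07, in HT and 0.39, SE 0.07, in WT libraries) and Grin2b (0.28, SE 0.06, and 0.38, SE 0.06) rose with fluoxetine in both genotypes and Grin1 (0.16, SE 0.04) in HT libraries. With lithium none of these 2 lists was called in either genotype, where 5.01% (HT) and 2.22% (WT) of all genes tested were. The lists' medians with fluoxetine ran from -0.11 to 0.05 in HT and -0.10 to 0.10 in WT libraries. Of all genes tested, 6.63% rose with fluoxetine in HT and 7% in WT libraries, and 7.78% fell in WT libraries. Nothing particular to these lists is read from the genes named.

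**Figure D5:**
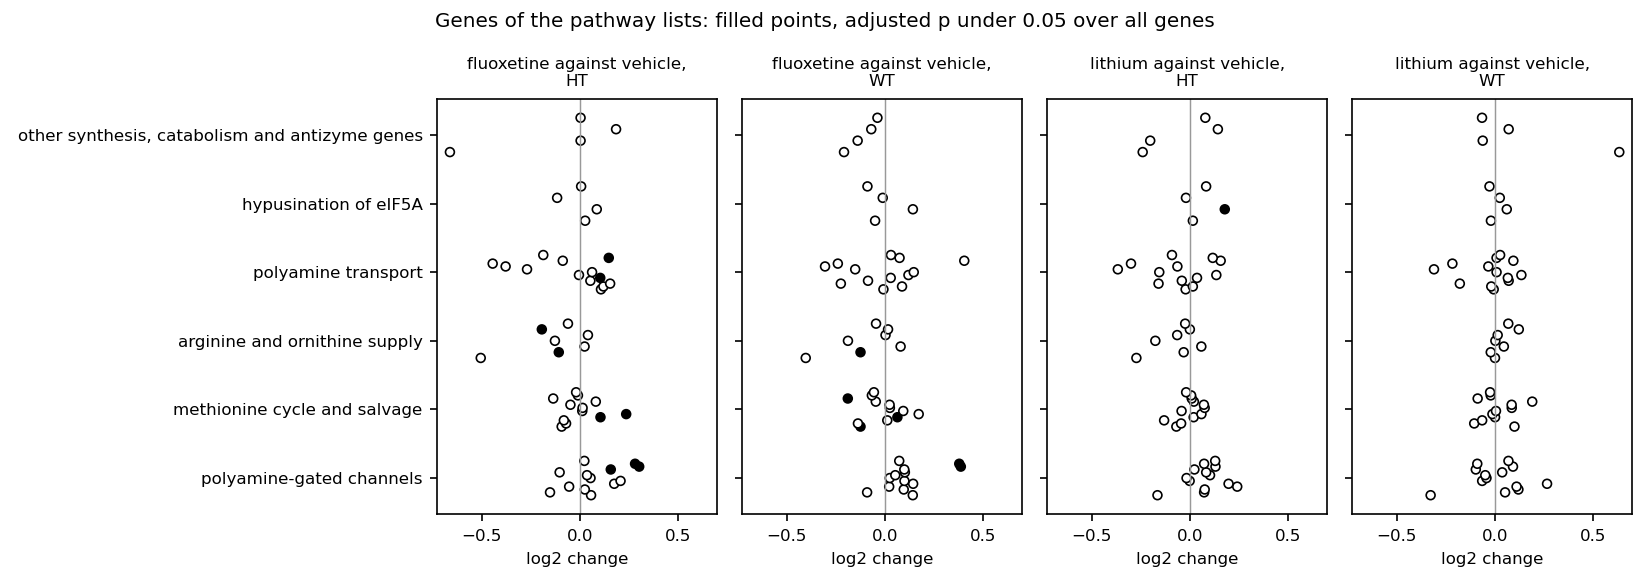
Log2 change (x axis) of each gene of the 6 pathway lists (rows) with fluoxetine or lithium in HT and WT libraries, filled where the adjusted p over all genes was under 0.05. With fluoxetine 9 genes are filled in HT and 6 in WT libraries, and with lithium 1 (Eif5a2 in HT) and none, out of the genes tested per list that the text gives. Of all genes tested, 14% and 14.8% were called with fluoxetine and 5.01% and 2.22% with lithium. Nothing particular to the lists is read from these counts.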

How the data were processed

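The deposited table holds one signal value per gene and library: gene counts estimated with Salmon 0.11.2 and normalized between libraries by the authors with DESeq2 1.19.11 in R 3.6.0 on GRCm38, per the submitters' processing notes, with settings not given in the sources used here. All columns matched a library by title (0 left over). Of 51456 identifiers, 51285 matched GENCODE vM21, which gave symbols and lengths.

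Values were analysed as log2(value + 1), so folds of low genes are understated. Genes averaging 10 or more over all libraries (16919) were fitted with limma 3.58.1 (R 4.3.3, empirical Bayes with trend and robust options) as 12 means of genotype, drug and sex, with 47 residual degrees of freedom and 32 contrasts. Tests were two-sided, with Benjamini-Hochberg adjustment over all genes and a threshold of 0.05. SE are from that fit and SD between libraries. Other steps ran in Python 3.11.15 with SciPy 1.17.1, pandas 2.3.3, matplotlib 3.10.9 and NumPy 2.4.6. Relations used group-centred values and permutation tests with 100000 resamples for Pearson's r and 10000 for Spearman's rho. The fit was tested on simulated data. The value sums do not give read depth, which is unknown, so no counting interval is given.

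The 9 genes and the lists were chosen with earlier results of these data known. The text names all 9, up to 3 called genes of each pathway list with the smallest p, and the 5 genes most like Sat1 and Odc1. The labels do not say that libraries of a group came from separate animals, so p-values measure the spread between these libraries, which may be technical. Alternatives were a pseudocount of 10, no filter, rescaling, a replicate block, removal of length and GC trends, the compared groups alone, libraries left out and, chosen after seeing the data, near-identical gene copies summed. They were run for genotype in vehicle, each drug against vehicle, the genotype differences of the drug effects, and the sexes. Fluoxetine against lithium and the genotypes within a drug were not refitted.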

Additional observations from a re-analysis of the deposited data

Results flagged for a closer look

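Within groups of 9 or 10 libraries, the distance of the highest or lowest library from its nearest neighbour was set against the range of the group, for each of the 9 genes in each of the 6 genotype and drug groups. In 4 of these 54 sets a library stood apart, and chance gives about 1 in 20. Odc1 was at 1716.4 in HT fluoxetine female replicate 2, with the next library at 1480.7. In the same library Sms was at 4197.1, with the next at 3589.2, and this is the library with the high choroid plexus sum. Amd1 was at 2899.9 in WT fluoxetine female replicate 5, with the next at 3433.5. Oaz2 was at 4367.9 in WT fluoxetine male replicate 1, with the next at 4784.9, and the Oaz2 call in WT was lost without that library. The causes were not tested.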

How the results depend on the processing

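Of 648 values of single genes under the alternatives, 628 stayed on their side of the threshold, 20 crossed it and 0 reversed while called. Among those that stayed, called genes kept their direction. Genes not called moved by less than their SD within groups, and some with small changes took the other sign. With single libraries left out, 2078 of 2133 stayed on their side in this sense, 55 crossed it and 0 reversed while called. With no filter on low values, lithium in WT called 1 of the 9 genes and 212 of all genes, lithium in HT 448, HT against WT in vehicle 4, and females against males 0 of 9 and 172 of all. Rescaling called 0 of 9 between the sexes. With the replicate block fluoxetine in WT called 4 of 9 (Sat1 too, -0.16, adjusted p = 0.035) and the sexes 0 of 9 (Oaz1, adjusted p = 0.066). On average the numbers did not pair the libraries. The 145 same-sex pairs sharing a number had a mean correlation of 0.00487, from -0.308 to 0.48, with 38 over 0.1. The 580 same-sex pairs with different numbers had a mean of -0.00123, from -0.534 to 0.559, with 134 over 0.1. A mean cannot show whether some of the libraries were paired. With length and GC trends removed, fluoxetine in WT called 0 of 9 and 1601 of all genes, and 0 and 1598 with the block as well, and the sexes 0 of 9 in both. Without the 4 libraries described as apart, HT against WT in vehicle called 2 genes, lithium in HT 1958, the genotype difference of fluoxetine 1, and that of lithium 1 of 9 (Sat1) and 21 of all. With copies summed, lithium in HT called 2 of 9.

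With single libraries left out, the count over the 9 genes and over all genes was 0 and 1 to 2 for HT against WT in vehicle (2 without HT vehicle female 2, HT vehicle male 2 or WT vehicle female 5), 3 and 1863 to 2716 for fluoxetine in HT, 2 to 4 and 2047 to 2582 for fluoxetine in WT, 1 and 356 to 1597 for lithium in HT, 1 to 2 and 214 to 435 for lithium in WT, 0 and 0 for the genotype difference of fluoxetine, 0 to 1 and 0 to 5 for that of lithium, and 0 to 1 and 199 to 1011 for the sexes. Lithium in HT called 1597 without HT vehicle female 1, 356 without HT vehicle female 4, 427 without HT vehicle female 3, 536 without HT lithium female 2 and 513 without HT lithium male 4. Lithium in WT called 214 without WT lithium male 4, 226 and 248 without WT lithium female 3 and 1, and 231 without WT vehicle male 3. The sexes gave 1011 without WT fluoxetine male 1 and 199 without WT fluoxetine male 4. The Amd1 call in WT was lost without WT lithium female 3 or 5, WT lithium male 3 or 5, WT vehicle female 1 or 4, or WT vehicle male 3, 4 or 5. The causes were not tested.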
